A study of Mus musculus with 6 samples.

Results

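The genes described are 52 genes of the cell cycle and DNA replication. They were chosen by name, and all 52 were found among the 16519 genes of the count table. By their roles 22 were taken as S-phase genes, 22 as mitotic genes and 8 as genes that control G1. Their transcripts were measured by bulk RNA sequencing in cultured mouse bone marrow derived macrophages (BMDMs), in 3 libraries from Trmt61a f/f LysmCre mice (labelled TRMT61A-KO) and 3 from Trmt61a f/f mice (labelled TRMT61A-WT), called KO and WT. Both genotypes carry the floxed allele. LysmCre is a Cre recombinase placed in the lysozyme gene Lyz2, which is active in myeloid cells, and it was present in KO only, so its effect and that of losing Trmt61a cannot be told apart. The protein TRMT61A is the catalytic part of a tRNA methyltransferase, whose product is N1-methyladenosine. The labels name neither the age of the mice nor a stimulus, and they do not say whether the libraries came from separate animals or dishes. The p-values therefore rest on the variation among these 6 libraries, and that variation may be technical.

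A dividing cell passes through G1, copies its DNA in S phase and separates its chromosomes in mitosis. D-type cyclins with Cdk4 and Cdk6 inactivate the retinoblastoma protein, which frees E2F factors to switch on the genes of S phase, and a second set of genes is switched on later, in G2 and mitosis, by the MuvB complex with Foxm1 or B-Myb. Macrophages grown from marrow divide in response to the growth factor M-CSF and leave the cycle as they mature, so S-phase and mitotic transcripts in such a culture come mostly from the cells that still cycle. In bulk RNA, fewer cycling cells and less of these RNAs per cell cannot be told apart.

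The libraries held between 37021855 and 41033179 gene counts, and 12605 genes were tested. Levels are given in CPM, a gene's counts divided by the TMM-scaled library total and rescaled in the usual way, at which 3 counts correspond to between 0.0730 and 0.0813 CPM. Trmt61a was at 0.530, 0.755 and 0.539 CPM in KO 1, KO 2 and KO 3 and at 4.96, 3.89 and 5.06 CPM in WT 1, WT 2 and WT 3, and it was lower in each library labelled KO. All 12 macrophage markers listed were detected in every library, and Csf1r, the M-CSF receptor, stood between 3930.2 and 5116 CPM in KO and between 4112 and 4929 CPM in WT. The lowest count of any of the 52 genes in any library was 77, and all 52 passed the filter on low counts.

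The comparison the design implies is whether cell cycle genes differ between KO and WT macrophages. None of the 52 genes passed in edgeR (quasi-likelihood test, adjusted over all tested genes by Benjamini-Hochberg, threshold 0.05), where 0.0317% of all tested genes did, 0.00793% as higher and 0.0238% as lower in KO. For the 52 genes the smallest adjusted p was 0.9999. At an unadjusted p under 0.05 there were 0 of the 52 in edgeR, 0 in DESeq2 and 0 in limma voom, against 3.1% of all tested genes in edgeR. The median log2 fold change, KO over WT, was 0.04 for S-phase genes, 0.07 for mitotic genes and -0.02 for G1 control genes, and over all tested genes it was 0.0000837. KO values lay above WT values on the fitted scale for 17 of 22 S-phase, 16 of 22 mitotic and 3 of 8 G1 control genes, and for 6308 of 12605 genes in all. No overlap between KO and WT values was found in 1 of the 52, Cdk2, where 8.65% of all tested genes had none.

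These data bound a difference more loosely for the S-phase and mitotic genes than for most genes, but not for the G1 control genes. The 95% interval of the log2 fold change lay within 1.5-fold in either direction for 5 S-phase, 2 mitotic and 7 G1 control genes, against 80.4% of the 11345 tested genes whose mean was 1 CPM or more. Within 2-fold lay the intervals of 19, 14 and 8 genes of the same groups, against 93.5% of those tested genes. The medians changed sign when single libraries were left out: for S-phase genes the median was -0.12 without KO 3 and -0.13 without WT 2, but 0.21 without KO 1 and 0.26 without WT 3. For mitotic genes it was -0.19 without KO 3, -0.01 without KO 2, -0.11 without WT 2, 0.28 without KO 1 and 0.32 without WT 3.

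**Figure D1:**
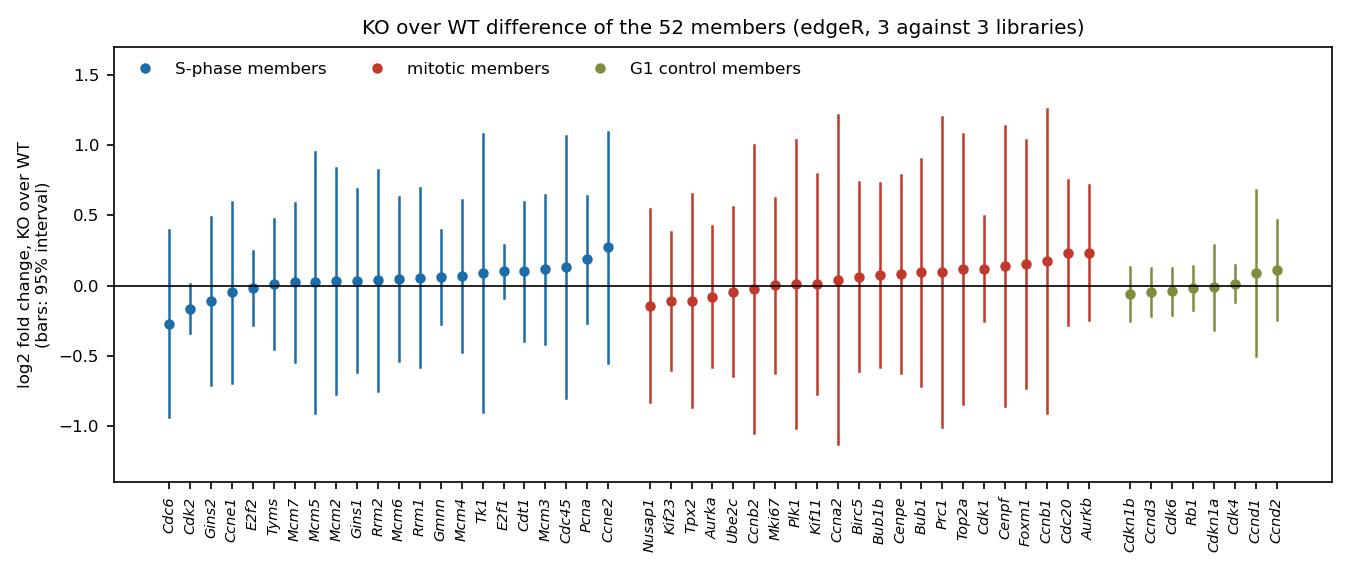
Log2 fold change of each of the 52 genes, KO over WT, from edgeR with 3 against 3 libraries. Points are fitted values, bars are 95% intervals, and colours mark S-phase, mitotic and G1 control genes. The interval of every gene crosses 0, and the widest ones, such as that of Ccna2 from -1.13 to 1.21, belong to mitotic genes.

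Within the S-phase genes, the first step is the licensing of replication origins. Cdc6 and Cdt1 load the MCM helicase, formed by Mcm2 to Mcm7, onto DNA, and Gmnn encodes geminin, which blocks Cdt1. Cdc6 was at 3.37, 5.99 and 7.44 CPM in KO 1, KO 2 and KO 3, against 5.31, 6.20 and 8.79 CPM in WT 1, WT 2 and WT 3. Mcm2 was at 18.7, 29.2 and 35.7 CPM in KO 1, KO 2 and KO 3, against 27.0, 19.5 and 35.3 CPM in WT 1, WT 2 and WT 3. Mcm5 was at 26.9, 43.2 and 49.6 CPM in KO 1, KO 2 and KO 3, against 35.9, 26.4 and 55.4 CPM in WT 1, WT 2 and WT 3. For all 3 genes KO 1 was the lowest KO library and KO 3 and WT 3 were the highest of their genotypes, and KO and WT overlapped. WT 2 was the lowest WT library for Mcm2 and Mcm5, while for Cdc6 it was WT 1. The log2 fold change was -0.27 (95% interval -0.94 to 0.39) for Cdc6, 0.03 (95% interval -0.77 to 0.83) for Mcm2 and 0.02 (95% interval -0.90 to 0.95) for Mcm5. The other MCM genes, Cdt1 and Gmnn had log2 fold changes between 0.02 (Mcm7) and 0.12 (Mcm3), and in each of these 6 genes KO 1 and WT 2 were the lowest and KO 3 and WT 3 the highest libraries of their genotypes.

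Licensed origins fire when Cdc45 and the GINS complex join the helicase, and Pcna is the clamp that holds DNA polymerases on the template. Cdc45 was at 3.71, 6.19 and 8.40 CPM in KO 1, KO 2 and KO 3, against 5.04, 3.29 and 8.35 CPM in WT 1, WT 2 and WT 3. It had the largest spread of the S-phase genes, with 2.26-fold between the highest and lowest KO library and 2.54-fold between the highest and lowest WT library, and a log2 fold change of 0.13 (95% interval -0.80 to 1.07). The GINS genes Gins1 and Gins2 had log2 fold changes of 0.04 and -0.11. Pcna was at 269, 339 and 369 CPM in KO 1, KO 2 and KO 3, against 297, 225 and 338 CPM in WT 1, WT 2 and WT 3. WT 2 was its lowest and KO 3 its highest library, and KO and WT overlapped. It had a log2 fold change of 0.19 (standard error 0.18) and an edgeR adjusted p of 0.9999. Pcna, Tyms, Ccnb1, Ccnb2 and Ccnd3 have named pseudogenes that may share reads, so their counts are less certain. Per kilobase of annotated exon Pcna had the highest level of the 52 genes, 215 CPM per kilobase in KO and 189 in WT. Cdc6 had the lowest mean over the 6 libraries, 1.29 CPM per kilobase. It was at 1.17 in KO and at 1.42 in WT, where Cenpf was lower at 1.37.

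Deoxynucleotides for the new DNA come from ribonucleotide reductase, whose subunits are Rrm1 and Rrm2, and from thymidylate synthase (Tyms) and thymidine kinase (Tk1). Rrm2 was at 16.9, 27.9 and 31.0 CPM in KO 1, KO 2 and KO 3, against 23.4, 17.8 and 32.7 CPM in WT 1, WT 2 and WT 3. Tk1 was at 7.56, 12.9 and 15.5 CPM in KO 1, KO 2 and KO 3, against 9.68, 7.18 and 16.9 CPM in WT 1, WT 2 and WT 3. In both genes KO 1 and WT 2 lay close together at the bottom and KO 3 and WT 3 at the top, so the genotypes overlapped over their whole range. The log2 fold change was 0.04 (95% interval -0.75 to 0.82) for Rrm2 and 0.09 (95% interval -0.90 to 1.08) for Tk1, and it was 0.06 for Rrm1 and 0.01 for Tyms.

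Cyclin E (Ccne1, Ccne2) with Cdk2 drives entry into S phase, and E2f1 and E2f2 encode activating E2F factors. Ccne1 was at 3.02, 4.10 and 5.83 CPM in KO 1, KO 2 and KO 3, against 3.85, 3.39 and 6.16 CPM in WT 1, WT 2 and WT 3. It followed the libraries as the genes above did, and its log2 fold change was -0.05 (95% interval -0.70 to 0.60). For Ccne2 the log2 fold change was 0.27 (95% interval -0.55 to 1.09). Cdk2 was at 33.2, 36.9 and 39.5 CPM in KO 1, KO 2 and KO 3, against 40.2, 40.3 and 42.5 CPM in WT 1, WT 2 and WT 3. Each KO library lay below each WT library, the closest values being 39.5 CPM in KO 3 and 40.2 CPM in WT 1. Cdk2 shares exon bases with the gene Pmel, and the strand setting of the counts is not known, so its counts are less certain. Cdk2 had a log2 fold change of -0.17 (standard error 0.08), and it did not pass (edgeR unadjusted p = 0.0605, adjusted p = 0.9999, exact two-sided permutation p = 0.1, the lowest p possible with 3 libraries in each genotype). E2f1 was at 42.6, 39.5 and 42.8 CPM in KO 1, KO 2 and KO 3, against 39.3, 34.4 and 42.8 CPM in WT 1, WT 2 and WT 3. It varied little in KO, where KO 2 was the lowest library, and its log2 fold change was 0.10 (95% interval -0.09 to 0.29). Cdk2, E2f1, E2f2 and Gmnn had the smallest within-genotype standard deviations of the S-phase genes, 0.09, 0.12, 0.16 and 0.20 on the log2 scale.

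Because E2F factors switch on the genes of S phase, the promoters were searched for the site that they bind. The genes were grouped by role, so the share with a site says nothing of the order of their libraries. RefSeq promoter windows (GRCm38.p6, the assembly of mm10) run from 250 bases before to 50 bases after each gene's start, and 40 of the 52 genes had at least 1 window, 5 of them 2. An E2F-type site was taken as TTTGGCGC, TTTCGCGC, TTTCCCGC or TTTGCCGC on either strand, and overlapping matches were counted separately. Such a site stood in 8 of 17 S-phase genes with a window (47.1%), in 1 of 18 mitotic and 0 of 5 G1 control genes. The share was 4.71% over 10099 tested genes and 2.60% over all 27025 genes with a window. Of 25 other genes of G1, the E2F family and MuvB with a window, 7 held an E2F-type site (28.0%). The S-phase genes with a site were Cdk2, Cdc6, Cdt1, Mcm3, Mcm5, Mcm6, Mcm7 and E2f2. The within-genotype standard deviations of these 8 genes lay between 0.09 (Cdk2) and 0.50 (Mcm5), and those of the 9 S-phase genes with a window but no match between 0.12 (E2f1) and 0.63 (Cdc45). The windows follow annotated starts, which need not be the start used in these cells. A gene without a match, such as E2f1, may therefore hold a site in a promoter that was not searched. Mcm5, Mcm6 and Cdc6 are printed because their windows hold E2F-type sites; capitals mark E2F-type sites (8 letters) and CCAAT boxes (5 letters, CCAAT or ATTGG), and in Mcm5 and Mcm6 a pair of E2F-type sites on opposite strands begin 4 bases apart and overlap.

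Mcm5, chr8:75109259-75109558, plus strand: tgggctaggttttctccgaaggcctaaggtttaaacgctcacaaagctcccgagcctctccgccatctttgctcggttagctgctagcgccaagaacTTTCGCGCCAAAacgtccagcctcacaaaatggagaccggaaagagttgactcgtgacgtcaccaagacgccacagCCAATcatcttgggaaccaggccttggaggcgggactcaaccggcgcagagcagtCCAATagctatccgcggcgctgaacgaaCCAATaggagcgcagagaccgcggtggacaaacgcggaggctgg

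Mcm6, chr1:128359656-128359955, minus strand: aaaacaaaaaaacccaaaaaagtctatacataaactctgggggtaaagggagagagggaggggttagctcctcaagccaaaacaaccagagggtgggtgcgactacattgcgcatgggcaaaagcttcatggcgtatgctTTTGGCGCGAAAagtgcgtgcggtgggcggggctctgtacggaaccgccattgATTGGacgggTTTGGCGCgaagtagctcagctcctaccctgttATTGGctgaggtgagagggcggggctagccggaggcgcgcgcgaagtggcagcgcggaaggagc

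Cdc6, chr11:98907901-98908200, plus strand: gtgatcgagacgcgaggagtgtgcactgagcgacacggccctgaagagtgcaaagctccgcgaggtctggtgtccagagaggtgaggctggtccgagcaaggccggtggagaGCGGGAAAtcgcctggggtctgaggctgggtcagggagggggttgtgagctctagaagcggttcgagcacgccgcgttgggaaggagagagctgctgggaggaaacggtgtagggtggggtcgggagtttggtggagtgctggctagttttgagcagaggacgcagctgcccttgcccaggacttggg

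In the Mcm5 window the overlapping sites begin at positions -153 and -149, counted from the start of the gene as position 1, and in Mcm6 they begin at -110 and -106, with one more site at -47. The Cdc6 site begins at -138. A match says only that these letters are present.

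Among the mitotic genes, entry into mitosis is driven by cyclins A and B with Cdk1, and Foxm1 is a transcription factor that activates many of them. Ccna2 was at 13.6, 28.1 and 37.1 CPM in KO 1, KO 2 and KO 3, against 23.5, 17.6 and 35.4 CPM in WT 1, WT 2 and WT 3. Ccnb1 was at 6.44, 11.9 and 16.4 CPM in KO 1, KO 2 and KO 3, against 7.62, 7.81 and 15.3 CPM in WT 1, WT 2 and WT 3. Cdk1 was at 15.4, 16.5 and 22.1 CPM in KO 1, KO 2 and KO 3, against 16.6, 13.5 and 19.5 CPM in WT 1, WT 2 and WT 3. KO 1 was the lowest KO library in all 3, KO 3 and WT 3 were the highest of their genotypes, and KO and WT overlapped. Ccna2 had the largest within-genotype standard deviation of all 52 genes, 0.64 on the log2 scale, with 2.73-fold between KO libraries and 2.01-fold between WT libraries, and Cdk1 the smallest of the mitotic genes, 0.27, with 1.43-fold in KO and 1.44-fold in WT. The log2 fold change was 0.04 (95% interval -1.13 to 1.21) for Ccna2, 0.18 (95% interval -0.90 to 1.26) for Ccnb1 and 0.12 (95% interval -0.25 to 0.49) for Cdk1. Foxm1 was at 12.6, 19.2 and 23.6 CPM in KO 1, KO 2 and KO 3, against 17.5, 10.1 and 22.2 CPM in WT 1, WT 2 and WT 3, with WT 2 lowest and KO 3 highest. Its log2 fold change was 0.16 (95% interval -0.73 to 1.04). Ccnb2 had a log2 fold change of -0.03 and 2.72-fold between its KO libraries.

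Mki67 encodes Ki-67, a coat of mitotic chromosomes used as a marker of proliferation, and Top2a the topoisomerase that untangles replicated DNA. Mki67 was at 127, 170.4 and 202 CPM in KO 1, KO 2 and KO 3, against 161, 130.1 and 207 CPM in WT 1, WT 2 and WT 3. Its means were 166 ± 37.7 CPM in the KO libraries and 166 ± 38.7 CPM in the WT libraries (SD, n = 3 each), and its log2 fold change was 0.0019 with a 95% interval from -0.62 to 0.62. Top2a was at 45.9, 64.7 and 92.3 CPM in KO 1, KO 2 and KO 3, against 55.8, 43.9 and 87.4 CPM in WT 1, WT 2 and WT 3. KO 1 and WT 2 were again close at the low end, KO 3 and WT 3 at the high end, and the log2 fold change of Top2a was 0.12 (95% interval -0.84 to 1.08).

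The remaining mitotic genes encode kinases, motors and spindle proteins. Aurkb, the kinase of the chromosomal passenger complex that corrects faulty attachments, was at 9.12, 11.9 and 14.3 CPM in KO 1, KO 2 and KO 3, against 10.1, 7.46 and 12.5 CPM in WT 1, WT 2 and WT 3. It had a log2 fold change of 0.23 (standard error 0.21) and an edgeR adjusted p of 0.9999, and KO and WT overlapped. Cdc20, which activates the ubiquitin ligase that starts anaphase, was at 9.25, 11.1 and 13.2 CPM in KO 1, KO 2 and KO 3, against 10.3, 6.35 and 11.9 CPM in WT 1, WT 2 and WT 3. WT 2 stood below the other libraries, and the log2 fold change was 0.23 (95% interval -0.28 to 0.75). Kif23, a motor protein of cell division, was at 16.6, 18.2 and 22.7 CPM in KO 1, KO 2 and KO 3, against 19.6, 15.5 and 27.0 CPM in WT 1, WT 2 and WT 3. Here WT 3 was the highest library and WT 2 the lowest, and the log2 fold change was -0.11 (95% interval -0.60 to 0.38). Aurka and Plk1, kinases of spindle assembly, had -0.08 and 0.01. Bub1 and Bub1b, of the spindle checkpoint, had 0.10 and 0.08. Cenpe and Cenpf, kinetochore proteins, had 0.08 and 0.14. The spindle genes Kif11, Tpx2, Nusap1 and Prc1 had 0.01, -0.11, -0.14 and 0.10. Birc5, which encodes survivin of the passenger complex, and Ube2c, an enzyme of the anaphase ligase, had 0.06 and -0.04. All of these log2 fold changes were smaller than the within-genotype standard deviations, which for the 22 mitotic genes lay between 0.27 and 0.64.

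Mitotic genes are known to carry the cell cycle genes homology region (CHR), the site that the MuvB complex binds, often beside CCAAT boxes bound by NF-Y. The CHR was searched as TTTGAA or TTCGAA and the CCAAT box as CCAAT, both on either strand. A CHR stood in 14 of 18 mitotic genes with a window (77.8%), in 4 of 17 S-phase genes (23.5%) and in 0 of 5 G1 control genes, where the share was 16.5% of tested genes and 21.7% of all genes with a window. Of 25 other genes of G1, the E2F family and MuvB with a window, 9 held a CHR (36.0%). E2f2, counted among the S-phase genes with a CHR, held it in a different window from its E2F-type site. A CCAAT box stood in 16 of 18 mitotic, 11 of 17 S-phase and 2 of 5 G1 control genes, against 43.0% of tested genes. Both stood in 14 of 18 mitotic genes (77.8%) and in 8.17% of tested genes. Ccnb1, Birc5, Cenpe and Nusap1 held no CHR in this window, and their within-genotype standard deviations, between 0.43 and 0.63, lay inside the range of the others. With only the 250 bases before the start, a CHR stood in 9 of 18 mitotic genes and an E2F-type site in 5 of 17 S-phase genes. Cdk1, Ccnb2 and Top2a are printed because they hold both elements; capitals mark CHRs (6 letters) and CCAAT boxes (5 letters), on either strand, and in Cdk1 also an E2F-type site (8 letters).

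Cdk1, chr10:69352863-69353162, minus strand: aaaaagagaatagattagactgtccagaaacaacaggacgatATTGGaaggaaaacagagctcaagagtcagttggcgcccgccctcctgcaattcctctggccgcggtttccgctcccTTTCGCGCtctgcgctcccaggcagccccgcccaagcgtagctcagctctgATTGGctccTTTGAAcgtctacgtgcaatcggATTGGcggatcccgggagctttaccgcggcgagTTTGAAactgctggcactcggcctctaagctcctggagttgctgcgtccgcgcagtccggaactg

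Ccnb2, chr9:70421505-70421804, minus strand: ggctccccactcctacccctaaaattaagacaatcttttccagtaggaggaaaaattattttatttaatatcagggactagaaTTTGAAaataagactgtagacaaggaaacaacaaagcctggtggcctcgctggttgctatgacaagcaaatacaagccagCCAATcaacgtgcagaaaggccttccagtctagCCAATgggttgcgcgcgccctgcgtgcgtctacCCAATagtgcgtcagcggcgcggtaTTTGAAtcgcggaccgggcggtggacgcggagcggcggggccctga

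Top2a, chr11:99024140-99024439, minus strand: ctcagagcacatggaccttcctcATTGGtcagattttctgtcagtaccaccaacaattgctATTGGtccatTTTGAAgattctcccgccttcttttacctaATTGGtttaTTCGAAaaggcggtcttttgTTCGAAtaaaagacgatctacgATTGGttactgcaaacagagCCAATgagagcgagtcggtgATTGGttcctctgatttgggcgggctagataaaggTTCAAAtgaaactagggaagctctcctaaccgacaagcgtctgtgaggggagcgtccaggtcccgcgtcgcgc

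In Ccnb2 the 3 CCAAT boxes begin at positions -87, -54 and -21, 33 bases apart, and the CHRs at -167 and 5. In Cdk1 the CCAAT boxes begin at -208, -80 and -48 and the CHRs at -71 and -15. Top2a holds 6 CCAAT boxes and 4 CHRs.

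**Figure D2:**
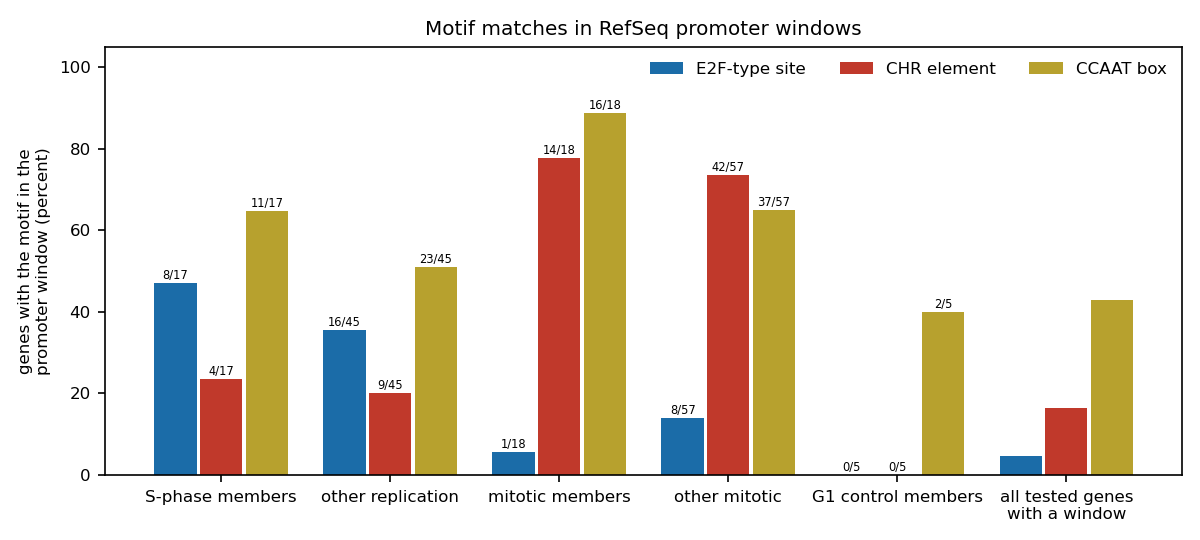
Share of genes, in percent, whose RefSeq promoter window holds an E2F-type site, a CHR element or a CCAAT box, with genes over genes with a window printed above the bars of each list. E2F-type sites are most frequent in S-phase genes (47.1%) and CHR elements in mitotic genes (77.8%), against 4.71% and 16.5% of tested genes.

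The G1 control genes had a smaller median spread between libraries than the S-phase and mitotic genes, and Ccnd1, Ccnd2 and Cdkn1a, with within-genotype standard deviations of 0.33, 0.26 and 0.20 on the log2 scale, had the largest among them. Ccnd1 and Ccnd2 encode D-type cyclins, which mitogens induce. Ccnd1 was at 86.1, 117 and 142 CPM in KO 1, KO 2 and KO 3, against 112, 85.6 and 127 CPM in WT 1, WT 2 and WT 3. It had the low libraries KO 1 and WT 2 and the high libraries KO 3 and WT 3 in common with the S-phase genes, with 1.65-fold between KO libraries, and its log2 fold change was 0.09 (95% interval -0.50 to 0.68). Ccnd2 was at 11.3, 17.8 and 14.6 CPM in KO 1, KO 2 and KO 3, against 11.8, 13.9 and 14.7 CPM in WT 1, WT 2 and WT 3. Its highest library was KO 2 and its lowest KO 1, KO and WT overlapped, and its log2 fold change was 0.11 (95% interval -0.25 to 0.47). Ccnd3 was at 43.4, 47.8 and 44.4 CPM in KO 1, KO 2 and KO 3, against 46.2, 43.3 and 50.6 CPM in WT 1, WT 2 and WT 3, with WT 3 highest and a log2 fold change of -0.05 (95% interval -0.22 to 0.12).

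Cdk6, which partners the D-type cyclins, was at 124, 126 and 148 CPM in KO 1, KO 2 and KO 3, against 137, 128 and 144 CPM in WT 1, WT 2 and WT 3. KO 3 and WT 3 were its highest libraries, and its log2 fold change was -0.04 (95% interval -0.21 to 0.13). Cdk4, the other partner, had the smallest spread of the 52 genes, 0.06 on the log2 scale, with means of 90.3 ± 3.56 CPM in the KO libraries and 89.5 ± 3.72 CPM in the WT libraries (SD, n = 3 each). Rb1, the retinoblastoma gene, was at 119.6, 107 and 121 CPM in KO 1, KO 2 and KO 3, against 115, 127 and 109.6 CPM in WT 1, WT 2 and WT 3, with a log2 fold change of -0.02 (95% interval -0.18 to 0.14).

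The inhibitors Cdkn1a and Cdkn1b were highest in the libraries where the S-phase and mitotic genes were low. Cdkn1a, which encodes the CDK inhibitor p21, was at 232, 207 and 186 CPM in KO 1, KO 2 and KO 3, against 207, 247 and 178 CPM in WT 1, WT 2 and WT 3. KO 1 and WT 2, the low libraries of the S-phase and mitotic genes, were its highest libraries, and KO 3 and WT 3 its lowest. Cdkn1b, which encodes the inhibitor p27, was at 79.8, 63.9 and 65.7 CPM in KO 1, KO 2 and KO 3, against 71.6, 77.5 and 69.1 CPM in WT 1, WT 2 and WT 3, with KO 1 and WT 2 again the highest of their genotypes. Neither differed between genotypes beyond this spread, with log2 fold changes of -0.01 (95% interval -0.32 to 0.29) for Cdkn1a and -0.06 (95% interval -0.25 to 0.14) for Cdkn1b.

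The spread between libraries of the same genotype exceeded the difference between genotypes. Averaged over the 22 S-phase genes and set against the mean of the 6 libraries, log2 CPM was -0.37, 0.09 and 0.33 in KO 1, KO 2 and KO 3, against -0.05, -0.35 and 0.35 in WT 1, WT 2 and WT 3. The mitotic genes stood at -0.52, 0.13 and 0.44 in the KO libraries, against -0.03, -0.42 and 0.40 in the WT libraries, in the same order within each genotype. The G1 control genes stood at -0.06, 0.01 and 0.05 in the KO libraries, against -0.01, -0.01 and 0.02 in the WT libraries. The standard deviation of these averages was 0.36 among KO and 0.35 among WT libraries for S-phase genes, and 0.49 among KO and 0.41 among WT libraries for mitotic genes. The difference KO minus WT was 0.04 for both.

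**Figure D3:**
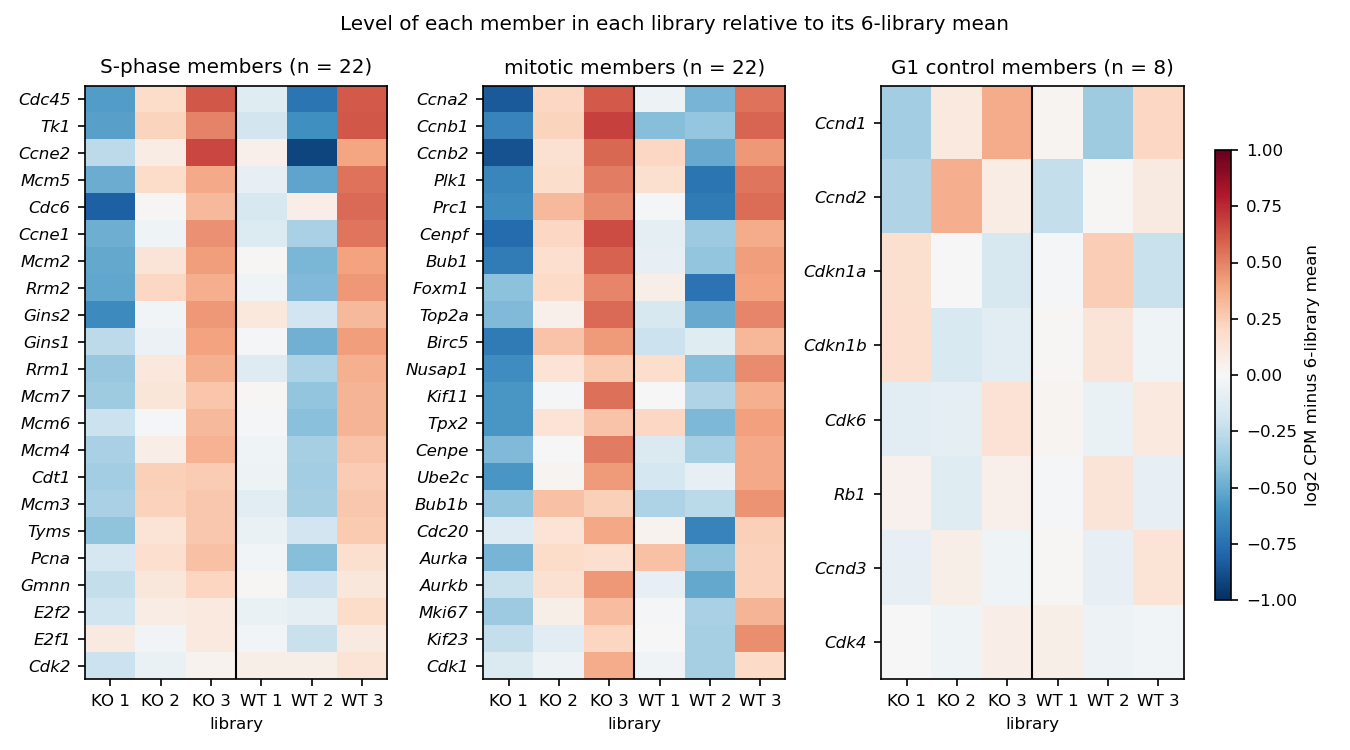
Log2 CPM of each of the 52 genes in each library minus its 6-library mean, by group, with KO libraries left of WT libraries and genes ordered from the largest within-genotype spread at the top. KO 1 and WT 2 are low and KO 3 and WT 3 high for most S-phase and mitotic genes, while most G1 control genes are near 0 and Cdkn1a lies the other way.

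Gene by gene, KO 1 was the lowest KO library for 21 of 22 S-phase and 22 of 22 mitotic genes, against 37.8% of all tested genes. KO 3 was the highest KO library for 22 S-phase and 20 mitotic genes (34.4% of all tested genes), WT 2 the lowest WT library for 20 and 18 (36.2%) and WT 3 the highest for 22 and 21 (36.7%). The exceptions were E2f1, lowest in KO 2; Aurka and Bub1b, highest in KO 2; Aurka, highest in WT 1; and Cdk2, Cdc6, Ccnb1, Ube2c, Birc5 and Bub1b, lowest in WT 1. The standard deviation within a genotype exceeded the difference between genotypes in 51 of the 52 genes, Cdk2 being the exception, and in 74.6% of all tested genes.

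The mitotic genes spread further than the S-phase genes. The median log2 difference between KO 3 and KO 1 was 0.98 for mitotic and 0.67 for S-phase genes, and that between WT 3 and WT 2 was 0.80 and 0.64; over all tested genes these medians were 0.00247 for KO and 0.00526 for WT. These are descriptions of single libraries, which were picked out after their values were known, and genes are not replicates. The median within-genotype standard deviation on the log2 scale was 0.35 for S-phase, 0.46 for mitotic and 0.13 for G1 control genes, and 0.12 for tested genes whose mean was 1 CPM or more. Since this spread depends on level, each gene was ranked among the 500 tested genes nearest to it in mean CPM. At or above percentile 90 lay 15 of 22 S-phase, 21 of 22 mitotic and 2 of 8 G1 control genes, against 10.2% of all tested genes. The G1 control genes among them were Ccnd1 and Cdkn1a, and the mitotic gene outside was Aurka. Such spread was not particular to the 52 genes. Of the lists described below, 46 of 69 other mitotic genes, 26 of 55 other replication genes, 11 of 12 neutrophil markers and 7 of 11 myeloid progenitor markers lay at or above that percentile. So did 4 of 30 other G1 genes, 4 of 19 p53 targets and 3 of 12 macrophage markers.

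**Figure D4:**
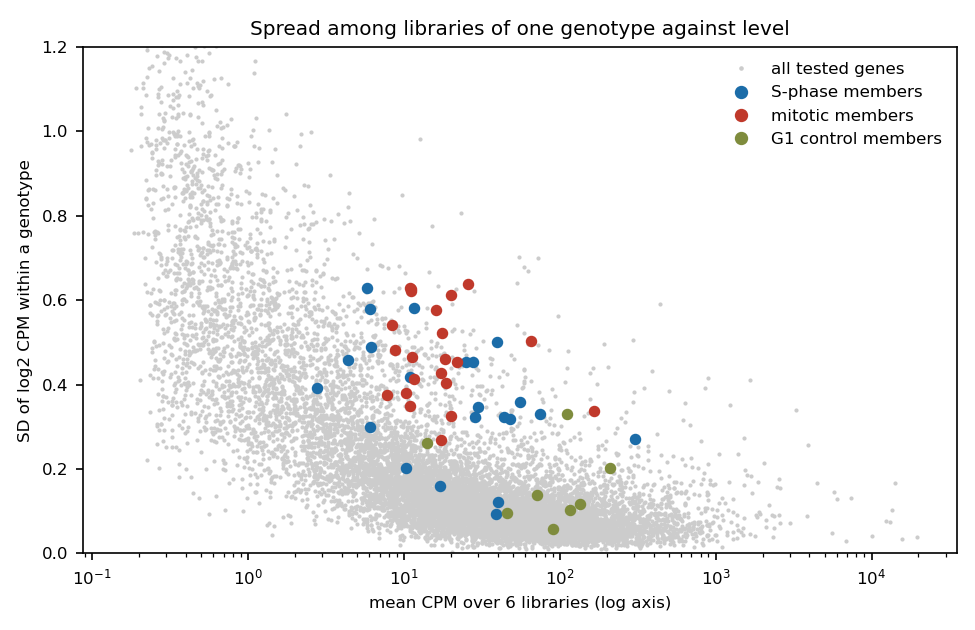
Standard deviation of log2 CPM within a genotype, pooled over KO and WT, against mean CPM over the 6 libraries on a log axis, for all tested genes (grey) and the 52 genes by group (coloured). Most S-phase and mitotic genes lie above the bulk of genes of their level and most G1 control genes within it; 99 genes above 1.2 are off the axis, and none of the 52 is among them.

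Most genes of the same processes outside the 52 had the same libraries at the extremes. Of 55 other replication genes, such as polymerases and origin recognition subunits, none passed in either direction, 33 lay above and 22 below 0, and the median log2 fold change was 0.02. Among these 55, KO 1 was the lowest KO library for 46 (37.8% of all tested genes) and KO 3 the highest for 44 (34.4%). WT 2 was the lowest WT library for 41 (36.2%) and WT 3 the highest for 47 (36.7%). Their average stood at -0.30, 0.06 and 0.28 in KO 1, KO 2 and KO 3, against -0.06, -0.27 and 0.28 in WT 1, WT 2 and WT 3. Orc3, of the origin recognition complex, had the smallest p of this list, with 40.4 ± 2.17 CPM in the KO libraries and 44.2 ± 3.07 CPM in the WT libraries (SD, n = 3 each; log2 fold change -0.13). Recql4, a helicase gene, had 1.54 ± 0.418 CPM in the KO libraries and 2.23 ± 1.15 CPM in the WT libraries (SD, n = 3 each; log2 fold change -0.53), and Pold3, a subunit of polymerase delta, had 57.9 ± 3.26 CPM in the KO libraries and 54.7 ± 1.55 CPM in the WT libraries (SD, n = 3 each; log2 fold change 0.08). Of 69 other mitotic genes none passed either, with 37 above and 32 below 0 and a median of 0.01. Their average stood at -0.44, 0.11 and 0.33 in the KO libraries, against -0.08, -0.27 and 0.35 in the WT libraries. Among these 69, KO 1 was the lowest KO library for 60 and KO 3 the highest for 54. WT 2 was the lowest WT library for 52 and WT 3 the highest for 60. Bub3, of the spindle checkpoint, had 74.5 ± 2.12 CPM in the KO libraries and 69.7 ± 7.93 CPM in the WT libraries (SD, n = 3 each; log2 fold change 0.10), and Psrc1, a spindle protein gene, had 7.42 ± 1.62 CPM in the KO libraries and 8.95 ± 1.04 CPM in the WT libraries (SD, n = 3 each; log2 fold change -0.27). With no adjustment, 0 genes of either list had p under 0.05 in edgeR, DESeq2 and limma voom. A CHR stood in 42 of 57 other mitotic genes with a window (73.7%), and an E2F-type site in 16 of 45 other replication genes (35.6%).

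Of 30 other genes of G1, the E2F family and MuvB tested, 9 lay above and 21 below 0, none passed, and the median log2 fold change was -0.06. Among these 30, KO 1 was the lowest KO library for 18 (37.8% of all tested genes) and KO 3 the highest for 17 (34.4%). WT 2 was the lowest WT library for 19 (36.2%) and WT 3 the highest for 19 (36.7%). Their average stood at -0.18, -0.02 and 0.14 in the KO libraries, against 0.04, -0.15 and 0.17 in the WT libraries. Cdkn1c, which encodes the CDK inhibitor p57, had 11.99 ± 1.44 CPM in the KO libraries and 15.0 ± 2.84 CPM in the WT libraries (SD, n = 3 each; log2 fold change -0.32). Unlike Cdkn1a and Cdkn1b, it was highest in KO 2 among KO and in WT 1 among WT libraries. Cdc25a, the phosphatase that activates Cdk2, had 11.9 ± 0.499 CPM in the KO libraries and 14.2 ± 1.93 CPM in the WT libraries (SD, n = 3 each; log2 fold change -0.25). Mybl1, a Myb family gene, had 3.14 ± 1.08 CPM in the KO libraries and 2.21 ± 0.520 CPM in the WT libraries (SD, n = 3 each; log2 fold change 0.50). Cdkn1a is a target of p53, and of 19 other p53 targets tested none passed, with 6 above and 13 below 0 and a median of -0.02. In 9 of 19 KO 1 was the highest and KO 3 the lowest KO library and WT 3 the lowest WT library, as for Cdkn1a, an order read from libraries picked after their values were known. It was found in 12.1% of all tested genes. The other 10 did not show it. The list average stood at 0.02, -0.02 and -0.05 in the KO libraries, against -0.02, 0.13 and -0.06 in the WT libraries. Pmaip1, which encodes the death factor Noxa, had 9.42 ± 1.01 CPM in the KO libraries and 11.9 ± 1.67 CPM in the WT libraries (SD, n = 3 each; log2 fold change -0.33) and was the only p53 target with an unadjusted p under 0.05 in edgeR, DESeq2 and limma voom alike; its highest WT library was WT 3. Zmat3, which encodes an RNA-binding protein, had 32.2 ± 3.66 CPM in the KO libraries and 37.4 ± 5.12 CPM in the WT libraries (SD, n = 3 each; log2 fold change -0.22), and Btg2, an antiproliferative gene, had 53.4 ± 2.78 CPM in the KO libraries and 58.9 ± 3.95 CPM in the WT libraries (SD, n = 3 each; log2 fold change -0.14). Of 14 regulators of macrophage growth none passed, and their median was 0.01. In this list and that of G1 genes 0 genes had an unadjusted p under 0.05 in any of the 3 tests. KO 1 was the lowest KO library for 10 of these 14, KO 3 the highest for 3, WT 2 the lowest WT library for 6 and WT 3 the highest for 7. Csf1, which encodes M-CSF, had 67.5 ± 24.8 CPM in the KO libraries and 52.9 ± 7.45 CPM in the WT libraries (SD, n = 3 each; log2 fold change 0.35). Csf2rb, a receptor subunit for GM-CSF, had 405 ± 19.8 CPM in the KO libraries and 421 ± 27.4 CPM in the WT libraries (SD, n = 3 each; log2 fold change -0.05), and Klf2, a transcription factor gene, had 19.2 ± 2.11 CPM in the KO libraries and 21.6 ± 2.68 CPM in the WT libraries (SD, n = 3 each; log2 fold change -0.17); WT 2 was the highest WT library for both.

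Markers of other marrow cells also differed between libraries of a genotype. The 11 myeloid progenitor markers, led by Mpo, summed to 85.8, 156 and 168 CPM in KO 1, KO 2 and KO 3, against 138, 118 and 236 CPM in WT 1, WT 2 and WT 3, with KO 1 lowest in KO for 10 and WT 3 highest in WT for 8 of them. The 12 neutrophil markers, led by Ngp, summed to 1759, 2759 and 2792 CPM in KO 1, KO 2 and KO 3, against 2279.7, 1757 and 3166 CPM in WT 1, WT 2 and WT 3. Both sums were lowest in KO 1 among KO and in WT 2 among WT libraries, and highest in KO 3 and WT 3. The 9 mast cell, basophil and eosinophil markers in the table, led by Prg2, summed to 26.6, 53.1 and 55.2 CPM in KO 1, KO 2 and KO 3, against 33.1, 29.1 and 64.5 CPM in WT 1, WT 2 and WT 3. The B and plasma cell markers in the table, led by Cd79b, summed to 9.28, 13.1 and 15.3 CPM in KO 1, KO 2 and KO 3, against 10.8, 9.42 and 17.9 CPM in WT 1, WT 2 and WT 3. The dendritic cell markers in the table summed to 135, 231 and 277 CPM in KO 1, KO 2 and KO 3, against 173, 135 and 245 CPM in WT 1, WT 2 and WT 3, nearly all from Itgax, and without it to between 4.61 and 6.92 CPM in any library. In these 5 sums, each carried by a few abundant genes, KO 1 and WT 2 were the low and KO 3 and WT 3 the high libraries of their genotypes. In averages of log2 CPM, which weight each tested gene equally, this order held for the progenitor markers and not for the other 4 lists. The neutrophil average was 0.28 in KO 2 and 0.18 in KO 3, and that of B and plasma cells 0.26 in KO 2 and 0.23 in KO 3. The mast cell, basophil and eosinophil average was lowest in WT 1 among WT libraries, and WT 3 was the lowest WT library for dendritic cells. KO 3 was the highest KO library for 6 of 11 progenitor and 7 of 12 neutrophil markers. The part of such cells in the spread of the cycle genes was not tested. All 11 progenitor markers lay below 0 in the fitted log2 fold change, with a median of -0.27. In 10 of these 11 the within-genotype standard deviation exceeded the difference between genotypes (74.6% of all tested genes). Their list average ran from -0.65 in KO 1 to 0.54 in WT 3. None of the 11 passed (edgeR, DESeq2, limma voom), though each tool gave 1, Sox4, an unadjusted p under 0.05, where 3.1% of all tested genes had one in edgeR. Of the other lists, Gp9 and Pf4 (megakaryocyte and erythroid), Cxcl12 (stromal) and Nkg7 (T and NK cell) had one in all 3 tools, Siglecf (mast cell, basophil and eosinophil) in edgeR and DESeq2, Mcpt8 (same list) in DESeq2 and Ppbp (megakaryocyte and erythroid) in limma voom. No progenitor or neutrophil marker was at 0 in any library, and the mast cell and basophil markers Mcpt8, Prss34 and Ms4a2 were at or under 1.19 CPM. Of the 12 macrophage markers Lyz2, the gene that carries Cre, was lower in KO (edgeR adjusted p = 0.00735), at 10769, 9253 and 8488 CPM, against 18389.8, 21194 and 17037 CPM in WT, and the other 11 summed to between 13625 and 15426 CPM over the 6 libraries. In 5 of the 12, Csf1r and Lyz2 among them, KO 1 was the highest and KO 3 the lowest KO library and WT 3 the lowest WT library. This order, read from libraries picked after their values were known, was found in 12.1% of all tested genes. The other macrophage markers did not show it. The list average was 0.01, -0.06 and -0.08 in the KO libraries, against -0.01, 0.08 and 0.05 in the WT libraries.

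The other marker lists lay otherwise. The stromal markers, led by Col1a2, summed to 141, 298 and 255 CPM in KO 1, KO 2 and KO 3, against 196, 137 and 200.4 CPM in WT 1, WT 2 and WT 3, so that KO 2 was the highest KO library. The megakaryocyte and erythroid markers summed to between 176 and 203 CPM in KO and between 157 and 160.0 CPM in WT, led by Pf4. T and NK cell markers other than Cd4 summed to at most 1.66 CPM, and the T cell markers Cd3e, Cd3d and Cd3g were at or under 0.122 CPM in every library.

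**Figure D5:**
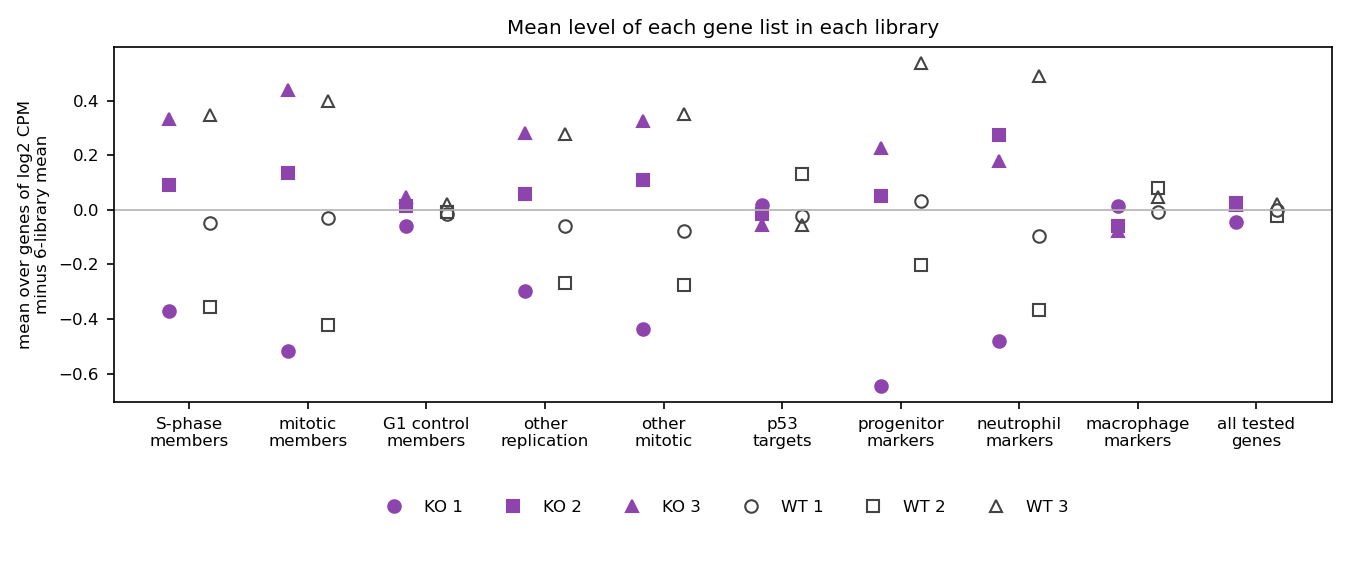
Mean over the tested genes of each list of log2 CPM minus the 6-library mean, in each library, with KO (filled) left of WT (open) and a symbol for each replicate number. The S-phase and mitotic genes, the other replication and mitotic genes and the progenitor markers have KO 1 and WT 2 at the bottom and KO 3 and WT 3 at the top of their genotypes, while all tested genes stay between -0.05 and 0.03.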

How the data were processed

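RNA of 6 BMDM libraries was taken up in TRIzol; per the labels' protocols, libraries were made with a VAHTS V6 kit. The authors deposited raw read counts per gene for all libraries in 1 table. The submitters' processing notes name fastp, HISAT2, HTSeq and build mm10; the sources used here do not give their versions, the annotation or the strand setting. Without a known strand setting, reads of overlapping genes cannot be assigned with certainty, and 21 of the 52 genes share exon bases with another gene in GENCODE M21.

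Counts were tested with edgeR 4.0.16 in R 4.3.3: TMM factors, filterByExpr by genotype (minimum count 10), robust dispersions, a quasi-likelihood F test, KO against WT, over 12605 genes, Benjamini-Hochberg threshold 0.05. Standard errors were derived from the fold change and its F value. Log2 CPM for averages and spreads used a prior count of 2. Exon lengths are the union of GENCODE M21 basic exons; promoter windows are from RefSeq. Alternatives were DESeq2 1.42.0, limma 3.58.1 (voom), other scalings and filters, a replicate block and leaving out each library. Chi-square tests of counts between libraries of a genotype came to 11.4 or more times their degrees of freedom, so no library was a copy of another of its genotype. The edgeR steps were tested on simulated data. The 52 genes, their grouping, the lists, the motifs and the rule for printing values in every library were chosen with earlier results of these data known. The rule took from each group the 4 genes with the smallest p, the highest mean, the 2 with the largest spread, and landmark genes; from other lists at most the 3 genes with the smallest p. Marker lists of the same choice are described by sums. No batch is named in the labels.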

Additional observations from a re-analysis of the deposited data

How the results depend on the processing

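None of the 52 genes passed under any of the 14 alternatives; at an unadjusted p under 0.05 there was 1 gene without KO 1 (Cdkn1b), 1 without KO 3 (Cdk2) and 0 under the others. Over all genes 4 were called, 8 with the replicate block and 17 with DESeq2. The labels do not say whether same-numbered KO and WT libraries were paired. Deviations of the same-numbered KO and WT libraries correlated at 0.0323, -0.128 and 0.246 for numbers 1, 2 and 3 across genes. Libraries of different numbers correlated at between -0.325 and 0.301, a range that holds these values, so the correlations cannot decide whether the numbers pair them. With the block 0 of the 52 passed. Under other scalings, filters, tests and the block, the median log2 fold change lay between 0.036 and 0.056 for S-phase, 0.038 and 0.073 for mitotic and -0.022 and -0.012 for G1 control genes. Leaving out single libraries gave -0.134 to 0.262, -0.189 to 0.316 and -0.028 to 0.002. The spread of the averages within a genotype stayed between 0.349 and 0.357 for S-phase, 0.450 and 0.455 for mitotic and 0.039 and 0.045 for G1 control genes under the other scalings, prior count and minimum level. In the G1 control average, genes with opposite library orders offset each other. In the shorter promoter window 5 S-phase genes held an E2F-type site, against 8, and 9 mitotic genes a CHR, against 14; the cause is fewer bases searched. Mki67 had a log2 fold change of -0.003 with upper-quartile factors and -0.001 with the stricter filter, and Ccna2 had -0.005 with the block and -0.007 with limma voom, against 0.002 and 0.043. Leaving out single libraries changed the sign of the log2 fold change, with no call on either side, in these genes: -0.326 to 0.257 for Ccne1, -0.167 to 0.555 for Cdc45, -0.186 to 0.266 for Mcm2, -0.197 to 0.362 for Mcm5, -0.154 to 0.298 for Rrm2, -0.154 to 0.511 for Tk1, -0.161 to 0.193 for Mki67, -0.173 to 0.444 for Top2a, -0.292 to 0.357 for Ccna2, -0.160 to 0.589 for Ccnb1, -0.053 to 0.258 for Cdk1, -0.285 to 0.128 for Kif23, -0.106 to 0.425 for Foxm1, -0.088 to 0.263 for Ccnd1, -0.059 to 0.262 for Ccnd2, -0.101 to 0.016 for Ccnd3, -0.126 to 0.007 for Cdk6, -0.120 to 0.114 for Cdkn1a, -0.167 to 0.002 for Cdkn1b, -0.062 to 0.040 for Rb1.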
